A study of Mus musculus with 23 samples.

Results

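The 10 immediate early genes that neuronal activity induces and that are described here are *Fos*, *Fosb* and *Junb*, *Egr1*, *Egr2* and *Egr3*, *Npas4*, *Nr4a1*, *Arc* and *Nptx2*. They were taken from the 56941 genes of the count tables as the rows whose Ensembl identifier carries one of these names in the GRCm39 annotation, and all 10 passed the filter on low counts that left 14482 genes to be tested. Transcription of these genes is known to start within minutes of synaptic input, when calcium entering through NMDA receptors and voltage-gated channels activates kinases that act on the factors CREB, SRF and MEF2 already bound at their promoters. Most of them encode transcription factors that start a later wave of genes, while others act at the synapse directly, and in hippocampal neurons their mRNA is widely read as a trace of recent activity.

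RNA was sequenced from primary neurons dissociated from hippocampi of newborn homozygous Nedd8cKO mice, in which loxP sites enclose the second exon and the third exon of *Nedd8*, the gene of a ubiquitin-like modifier. Lentivirus added on day 1 in vitro carried either RFP, a red fluorescent protein, or RFP-tagged CRE recombinase, which removes the floxed exons. RNA was taken after 12 days in culture by the labels, while the study's methods give another age, and no stimulation of the neurons is described. There were 12 CRE and 11 RFP libraries, of which the 21 left by the study's methods, 10 CRE and 11 RFP, were compared. Every library thus shared the floxed genotype, the strain and a lentivirus, and the groups differed in the recombinase. The Synapsin1 promoter, active in neurons, drove both inserts, so that glia in the dishes were not meant to lose *Nedd8*, and the sex of the pups was not checked. The digit before the hyphen in a library's name, 1, 2 or 3, is read here as the number of a culture, which the labels do not say. By this reading, and by the number of biological replicates in a figure legend of the study, the 10 and 11 libraries came from 3 biological replicates a group. Libraries of 1 culture are then not independent, p-values over libraries measure the spread between libraries, which may be partly technical, and they may be too small. With counts summed per culture, *Egr3* (log2 fold change -1.72, adjusted p = 0.000171), *Nptx2* (1.72, 0.000104) and *Fosb* (1.56, 0.00206) were called by edgeR and the other 7 members were not.

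The libraries compared held between 7635735 and 17112815 counts assigned to genes. *Nedd8* itself had 11.4 ± 3.68 counts per 1000000 counts (CPM, counts over the library's total after scaling with TMM factors; SD, n = 10) in CRE and 60.6 ± 10.0 CPM (n = 11) in RFP libraries, and the highest CRE value, 17.96 CPM, lay below the lowest RFP value, 44.1 CPM, so the labels hold for every library compared. The 2 CRE libraries left out, CRE 1-3 and CRE 3-3, together with RFP 2-4, stood apart by a rise of counts with the GC content of genes (Spearman correlations of 0.736, 0.547 and 0.475). CRE 3-2, which was compared, had a weaker rise (0.197), and the remaining libraries had values of -0.209 to -0.004. The rise with GC content touches the members, since the exons of all 10 had a GC content above the median of protein-coding genes (51.95 to 62.58%, against 48.03%). In RFP 3-2 the gene *Rn18s-rs5*, which encodes ribosomal RNA, took 24.2% of counts, and CRE 3-2 had counts on the most genes, 23738. Markers of neurons were present in every library (summed levels of 6 markers of 2657 to 4465 CPM in CRE and 4429 to 5926 CPM in RFP), and so were those of astrocytes (7 markers, 1554 to 5102 and 3032 to 7814 CPM) and of the oligodendrocyte lineage (7 markers, 424 to 1006 and 581.3 to 1866 CPM).

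The promoters of 3 members are shown first, chosen because each holds a TATA box (*Fos* and *Junb*) or a CArG box (*Egr2*). Sites for CREB and SRF are among those through which activity is known to reach these genes, while the TATA box is a general promoter element. Each is the stretch of 250 bases that ends at the start of the gene's canonical transcript, read from GRCm39 on the gene's own strand, 5′ to 3′. Capitals mark TGACG, the core of the cAMP response element, to which CREB binds (CGTCA where it lies on the other strand), the TATA box TATAAA, and the CArG box, to which SRF binds. The windows are chr12:85520408-85520657 on the plus strand for *Fos*, chr8:85705348-85705597 on the minus strand for *Junb* and chr10:67373442-67373691 on the plus strand for *Egr2*. No exon of the annotation lay in the *Fos* window, while the last bases of the *Junb* window belong to the 5′ UTR of another of its transcripts. The *Egr2* window lies inside the annotated gene, which begins at base 67371305 before the start of the canonical transcript. It is also shared with a long noncoding RNA on the opposite strand.
Fos: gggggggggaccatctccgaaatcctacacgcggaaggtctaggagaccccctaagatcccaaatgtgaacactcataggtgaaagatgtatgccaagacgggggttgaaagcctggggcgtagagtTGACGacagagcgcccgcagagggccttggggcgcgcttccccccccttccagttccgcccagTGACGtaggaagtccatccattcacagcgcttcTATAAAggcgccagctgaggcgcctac
Junb: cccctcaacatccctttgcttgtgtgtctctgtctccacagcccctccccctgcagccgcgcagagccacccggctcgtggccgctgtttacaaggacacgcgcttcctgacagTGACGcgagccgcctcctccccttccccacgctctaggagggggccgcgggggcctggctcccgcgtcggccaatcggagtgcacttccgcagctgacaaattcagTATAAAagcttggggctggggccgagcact
Egr2: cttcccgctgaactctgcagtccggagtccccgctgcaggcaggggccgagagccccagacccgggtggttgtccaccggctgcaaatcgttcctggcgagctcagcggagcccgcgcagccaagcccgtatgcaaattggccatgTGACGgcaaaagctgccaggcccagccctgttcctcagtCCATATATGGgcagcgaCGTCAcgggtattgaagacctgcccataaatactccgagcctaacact

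The core TGACG was found in 7 of the 9 windows searched among the members, not in those of *Arc* and *Npas4*, against 18.03% of the windows of 21770 protein-coding genes, with both strands searched. In *Fos* the core nearer to the start began 60 bases before it and the TATA box 27 bases before it. The TATA box, searched on the gene's strand, was held by 2 members, *Fos* and *Junb*, and by 8.034% of all windows. The CArG box was held by 1 member, *Egr2*, where it began 65 bases before the start, and by 1.396% of all windows on either strand. The complete response element TGACGTCA, which contains the core, the AP-1 site TGANTCA and the EGR site GCGTGGGCG were found in 0 of the 9 windows, against 1.695%, 6.174% and 0.5466% of all windows. A match here is a string of letters, and sites outside these windows, such as distal enhancers, were not searched.

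*Nptx2* and *Fosb* were higher and *Egr3* was lower in CRE than in RFP neurons, each by about 3-fold, and the other 7 members did not pass the test. The test was edgeR's quasi-likelihood test over all 14482 genes with Benjamini-Hochberg adjustment, and a gene was called at an adjusted p under 0.05. Of all genes tested 37.9% were called, 20.2% higher and 17.8% lower, so that 3 of 10 members called, 2 of them higher and 1 lower, is a share close to the background. The median log2 fold change of the members was 0.23, against 0.02 over all genes. In RNA from whole dishes, fewer cells of a type and less RNA per cell cannot be told apart.

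**Figure D1:**
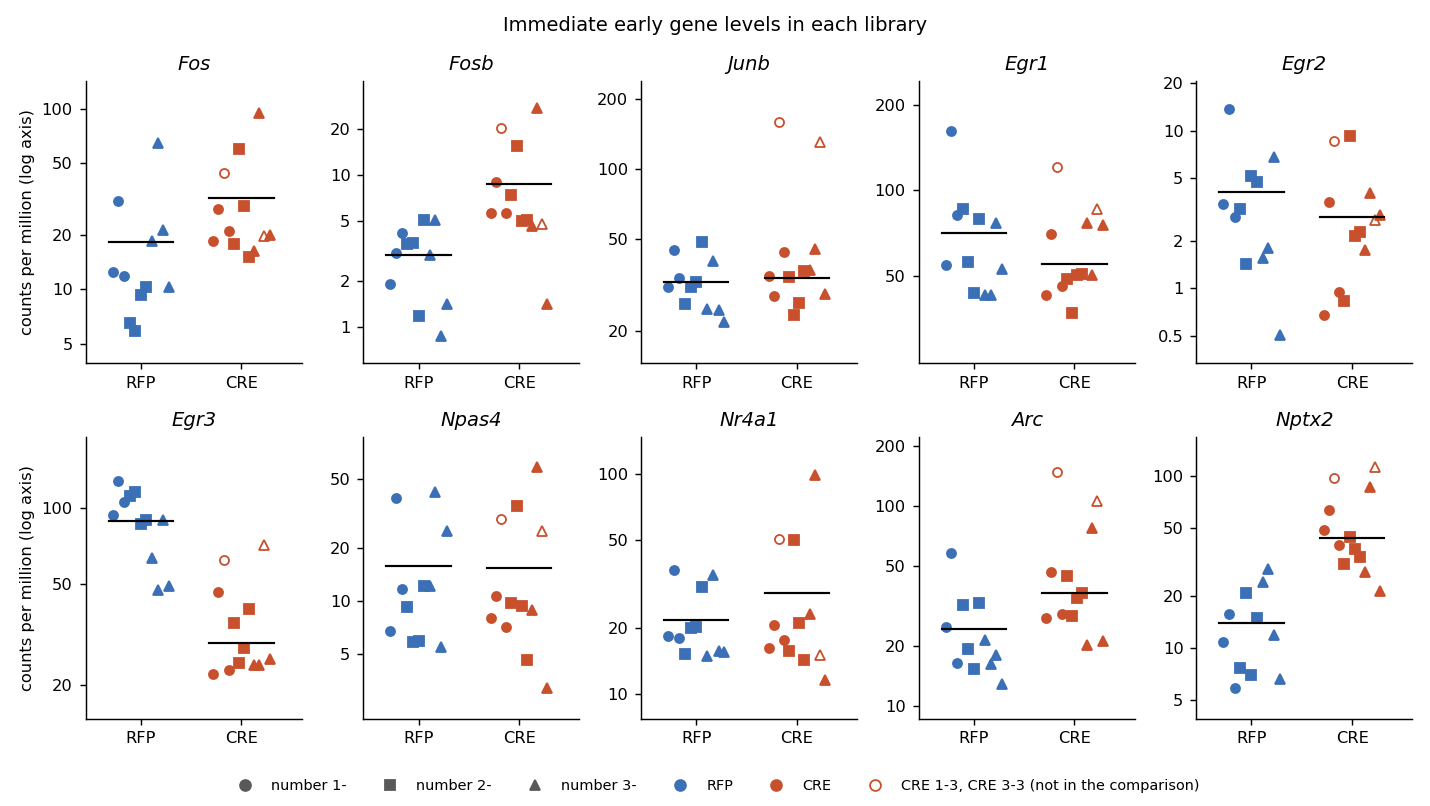
Level of each of the 10 genes in every library, in CPM on a log axis, with 11 RFP libraries on the left and 12 CRE libraries on the right of each panel; the marker's shape gives the digit before the hyphen of the library's name, bars are means over the libraries compared, and open symbols are CRE 1-3 and CRE 3-3, which were not compared. The filled *Egr3* points of the groups do not overlap, 8 of 10 CRE libraries lie above all RFP libraries for *Nptx2*, *Fos* and *Npas4* scatter widely in both groups, and *Nr4a1* does in CRE.

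Among the AP-1 proteins, Fos and FosB pair with Jun proteins to bind DNA. *Fos* ranged from 5.85 to 65.2 CPM with a median of 11.9 in the 11 RFP libraries, and from 15.1 to 95.3 CPM with a median of 20.5 in the 10 CRE libraries. All 10 CRE libraries lay above the RFP median, but the ranges overlapped broadly, and 1 library in each group, RFP 3-2 and CRE 3-2, was well above the rest of its group. The log2 fold change was 0.82 ± 0.44 (SE), with an adjusted p of 0.153 by edgeR's quasi-likelihood test. It was 1.88 in culture 2 (adjusted p = 0.00309), 0.25 in culture 1 (0.648) and 0.60 in culture 3 (0.7502), by edgeR within each culture, and the difference between cultures was not tested. Without RFP 3-2 it was 1.21 (adjusted p = 0.0143) and without CRE 3-2 it was 0.47 (0.396), so the call turned on single libraries.

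*Fosb*, whose truncated protein is known to outlast Fos after repeated activity, was the least abundant member per length in RFP neurons. It ranged from 0.870 to 5.09 CPM (median 3.09) in RFP and from 1.43 to 27.7 CPM (median 5.63) in CRE libraries. CRE libraries exceeded every RFP library in 6 of 10 cases and the RFP median in 9 of 10, with CRE 3-4 as the exception at 1.43 CPM and CRE 3-2 and CRE 2-2 highest at 27.7 and 15.6 CPM. The gene was 2.93-fold higher in CRE, a log2 fold change of 1.55 ± 0.39 (SE, 95% interval 0.75 to 2.35) with an adjusted p of 0.00231 by edgeR's quasi-likelihood test. It was positive in all 3 cultures, at 1.09, 1.27 and 2.14, where no single culture passed the test (adjusted p from 0.0863 to 0.197, edgeR). Without CRE 3-2 the log2 fold change was 1.15 (adjusted p = 0.00991). The gene-level counts do not separate the *Fosb* transcripts.

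*Junb*, which encodes a Jun partner that often restrains c-Jun, had close mean levels in the groups, 32.7 ± 8.64 CPM (SD, n = 11) in RFP and 33.8 ± 7.12 CPM (n = 10) in CRE libraries. Its values ran from 21.9 to 48.5 CPM (median 31.1) in RFP and from 23.5 to 45.2 CPM (median 34.4) in CRE libraries, the ranges lying one inside the other. The log2 fold change was 0.047 ± 0.14 (adjusted p = 0.830, edgeR), and its 95% interval of -0.25 to 0.34 bounds a difference in either direction in this fit only. With the trend of counts with GC content removed it was 0.30 (adjusted p = 0.0532, edgeR). The libraries left out were far above these ranges, with 159 CPM in CRE 1-3 and 130 CPM in CRE 3-3. *Junb* shares 7.27% of its exonic bases with the opposite-strand gene *Prdx2*, whose reads can be kept apart only if strand was used in counting.

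The EGR family of zinc finger factors, which bind GC-rich sites and are induced by calcium and MAP kinase signals, held the member with the smallest p. *Egr3*, known for roles in long-term plasticity, ranged from 47.6 to 129 CPM (median 90.1) in RFP and from 21.99 to 46.5 CPM (median 24.8) in CRE libraries. The groups did not overlap, with CRE 1-2 highest among CRE and RFP 3-2 lowest among RFP libraries, separated by a narrow gap. Such a separation with CRE lower was found for 2.6% of all genes tested. The level in CRE was 3.07-fold lower, a log2 fold change of -1.62 ± 0.18 (SE, 95% interval -1.98 to -1.26) with an adjusted p of 4.66e-08 by edgeR's quasi-likelihood test. Within cultures 1, 2 and 3 it was -1.89, -1.72 and -1.39, each called (adjusted p = 0.000469, 1.49e-05 and 0.00258, edgeR). The RFP libraries of culture 3 were lower than the others, with a mean of 62.7 CPM against 109 and 101 CPM in cultures 1 and 2. CRE 1-3 and CRE 3-3 had *Egr3* levels of 62.5 and 71.6 CPM, inside the RFP range, and with all 23 libraries included the log2 value was -1.36.

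*Egr1*, a gene known to be needed for late memory, ran from 42.8 to 162 CPM (median 56.1) in RFP and from 36.9 to 76.6 CPM (median 50.3) in CRE libraries. Values overlapped in all but 1 CRE library, CRE 2-2, and RFP 1-2, with 162 CPM, stood above all others. The log2 fold change of -0.37 ± 0.21 had an adjusted p of 0.170 by edgeR's quasi-likelihood test, and it was -0.94, -0.55 and 0.30 in cultures 1 to 3. *Egr2*, better known for myelination by Schwann cells, was scarce, at 0.504 to 13.7 CPM (median 3.17) in RFP and 0.683 to 9.27 CPM (median 2.199) in CRE libraries. The groups overlapped over most of their ranges, and the log2 fold change was -0.54 ± 0.47 (95% interval -1.504 to 0.42, adjusted p = 0.392, edgeR). In culture 1 it was -1.98 (adjusted p = 0.0572, edgeR within the culture), against -0.047 and 0.074 in the others, a difference that was not tested.

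The levels of *Egr3* and its relatives could be set side by side within each library, which removes what all of them share with the library. The ratio of *Egr3* to *Egr1* counts had a median of 1.29 in RFP and 0.536 in CRE libraries, and all 10 CRE libraries had a ratio below that of every RFP library. Relative to *Egr2* the median was 26.9 in RFP and 13.0 in CRE libraries, where 3 of 10 CRE libraries lay below all RFP libraries. These ratios, and that of *Nptx2* below, were chosen after the values were seen and are given without a test.

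**Figure D2:**
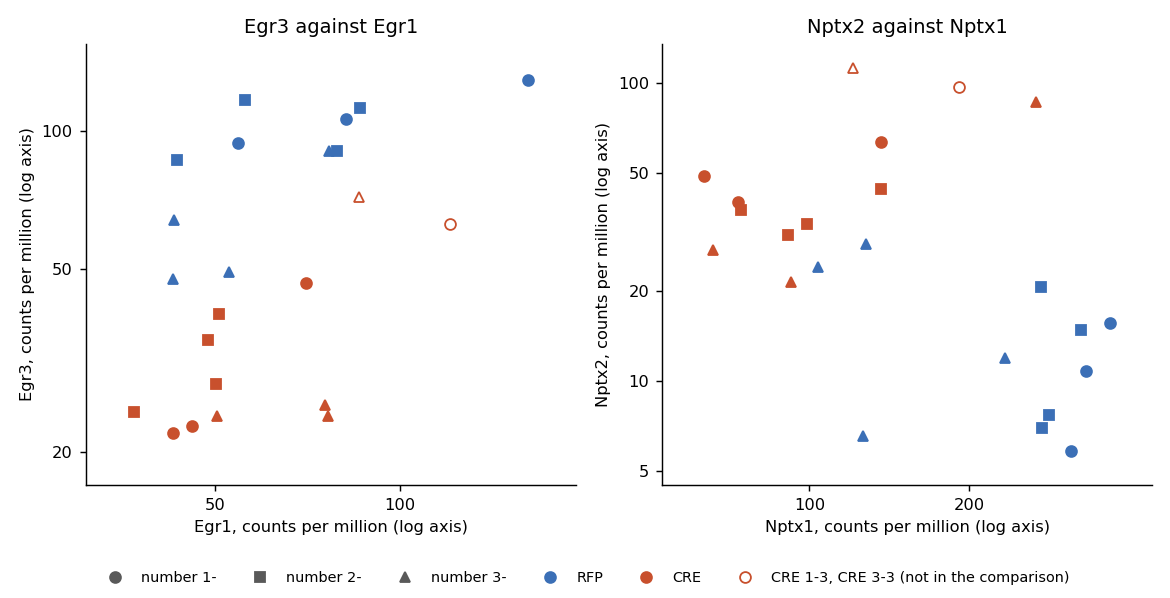
*Egr3* against *Egr1* (left) and *Nptx2* against *Nptx1* (right) in every library, in CPM on log axes; each point is 1 of 23 libraries, filled where it was compared. At like levels of *Egr1* the CRE points lie below the RFP points on the left, and on the right the RFP points sit at higher *Nptx1* and lower *Nptx2* than most CRE points.

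*Npas4* encodes a bHLH-PAS factor that, unlike other members, is known to respond to depolarization and calcium almost alone and to promote inhibitory synapses. It ranged from 5.46 to 42.0 CPM (median 11.6) in RFP and from 3.18 to 58.0 CPM (median 9.12) in CRE libraries. The spread within each group was larger than any difference between them. The log2 fold change of -0.034 ± 0.53 (adjusted p = 0.969, edgeR) had a 95% interval of -1.13 to 1.07, which includes changes of 2-fold in either direction. Within cultures 1, 2 and 3 the value was -1.19, 0.78 and 0.13, and the difference between cultures was not tested. *Nr4a1*, an orphan nuclear receptor that acts on metabolism and spine density, ran from 14.9 to 36.7 CPM (median 18.4) in RFP and from 11.6 to 98.8 CPM (median 19.1) in CRE libraries. CRE 3-2 and CRE 2-2, at 98.8 and 50.2 CPM, were above all RFP libraries, 2 other CRE libraries were below all of them, and the log2 fold change of 0.41 ± 0.34 (adjusted p = 0.370, edgeR) became -0.037 without CRE 3-2. *Nr4a1* exons overlap a noncoding gene on the opposite strand over 656 bases.

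*Nptx2* and *Arc* act at synapses directly. *Nptx2* encodes a secreted pentraxin that gathers AMPA receptors at excitatory synapses, in particular on parvalbumin interneurons. It ranged from 5.82 to 28.7 CPM (median 12.0) in RFP and from 21.5 to 85.9 CPM (median 38.5) in CRE libraries, and 8 of 10 CRE libraries exceeded every RFP library. The exceptions, CRE 3-1 and CRE 3-4 at 27.5 and 21.5 CPM, were from culture 3, as were the highest RFP values, 28.7 and 24.2 CPM. The gene was 3.13-fold higher in CRE, a log2 fold change of 1.64 ± 0.29 (SE, 95% interval 1.04 to 2.24) with an adjusted p of 8.78e-05 by edgeR's quasi-likelihood test. Within cultures it was 2.19, 1.503 and 1.32, called in cultures 1 and 2 (adjusted p = 6.45e-05 and 0.00306) and not in culture 3 (0.251, edgeR).

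*Nptx1*, the related pentraxin with which Nptx2 forms mixed complexes, went the other way. Its mean level was 110 ± 61.1 CPM (SD, n = 10) in CRE and 250.5 ± 91.6 CPM (n = 11) in RFP libraries, a log2 fold change of -1.19 ± 0.28 (adjusted p = 0.00199 by edgeR's quasi-likelihood test). The ranges overlapped, at 63.25 to 267 CPM in CRE and 103.9 to 368.5 CPM in RFP libraries. In culture 3 the CRE libraries had 65.9, 267 and 92.4 CPM, and the RFP libraries 103.9, 127.7, 233.5 and 126.1 CPM. The difference between cultures was not tested. The ratio of *Nptx2* to *Nptx1* counts had a median of 0.0460 in RFP and 0.376 in CRE libraries, and 9 of 10 CRE libraries had a ratio above that of every RFP library. *Arc*, a gene of a capsid-forming protein that drives endocytosis of AMPA receptors, ranged from 12.9 to 58.6 CPM (median 19.3) in RFP and from 20.1 to 77.6 CPM (median 31.7) in CRE libraries. All 10 CRE libraries lay above the RFP median and 1, CRE 3-2, above all RFP libraries. Its log2 fold change of 0.59 ± 0.26 had an adjusted p of 0.0798 by edgeR's quasi-likelihood test. In cultures 1, 2 and 3 the value was 0.013, 0.50 and 1.18, and without RFP 1-2, the RFP library with most *Arc*, it was 0.81 (adjusted p = 0.00469).

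**Figure D3:**
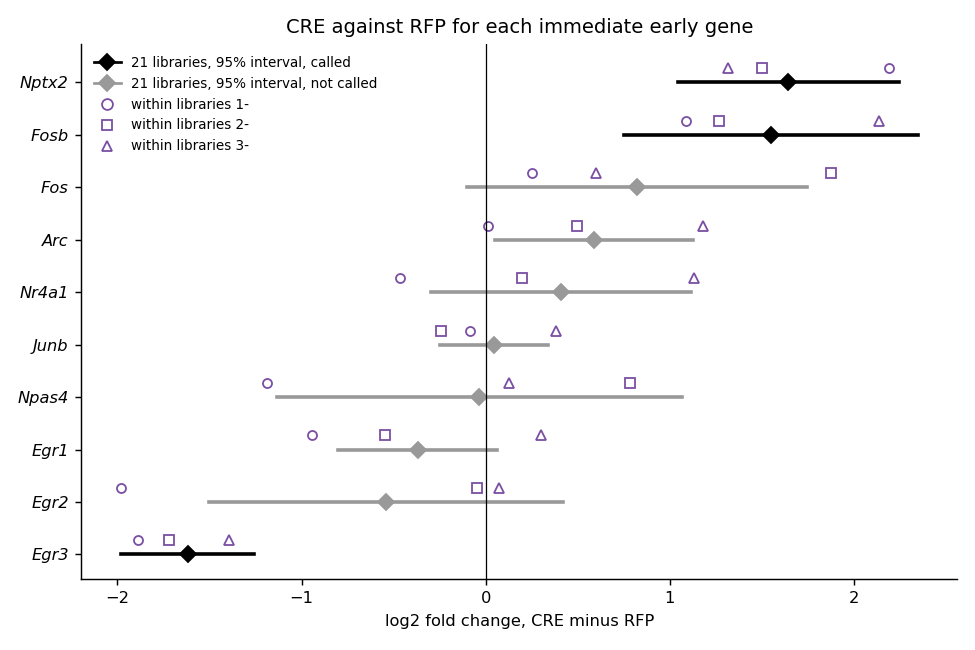
Log2 fold change, CRE minus RFP, of the 10 genes; diamonds and lines give the value and 95% interval over the 21 libraries, black where the adjusted p was under 0.05, and open symbols the values within the libraries whose names begin with 1, 2 or 3. *Egr3* lies below 0 and *Nptx2* and *Fosb* above 0 in all 3, while *Npas4*, *Nr4a1*, *Egr1*, *Egr2* and *Junb* have values on both sides of 0.

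Compared per length, in CPM per kilobase of the canonical transcript, the order of levels in RFP neurons ran from *Egr3* (20.6 ± 6.12, SD, n = 11), *Junb* (18.1 ± 4.78) and *Egr1* (15.7 ± 7.65) through *Fos* (8.70 ± 8.11), *Nr4a1* (8.54 ± 3.22), *Arc* (7.94 ± 4.29), *Nptx2* (5.47 ± 3.02) and *Npas4* (4.40 ± 3.68) to *Egr2* (1.38 ± 1.24) and *Fosb* (0.791 ± 0.392). Neighbours in this order overlapped in their ranges in every case. In CRE neurons *Egr3* was seventh, at 6.70 ± 1.93 (SD, n = 10), and *Nptx2* second, at 16.9 ± 7.46, while *Junb* was first at 18.7 ± 3.94. Levels per length do not correct for the GC content of the genes.

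After the group mean was removed, Pearson correlations of log2 CPM over the 21 libraries ran from -0.356 to 0.824 over the 45 pairs of members, with a median of 0.416, given as a description of libraries that share depth and base composition. *Npas4* and *Nr4a1* (0.824), *Fos* and *Npas4* (0.776), *Fosb* and *Nr4a1* (0.772) and *Fos* and *Nr4a1* (0.726) were most alike, and *Egr3* with *Fos* (-0.356) and *Npas4* (-0.327) least. The highest *Npas4* levels were in RFP 1-2, RFP 3-2, CRE 2-2 and CRE 3-2, at 38.8, 42.0, 35.0 and 58.0 CPM, and there *Fos* and *Nr4a1* were high as well. *Egr1* and *Egr3* were highest in 1 of these, RFP 1-2, and lowest among RFP libraries in another, RFP 3-2. Without CRE 3-2 the median correlation was 0.289.

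**Figure D4:**
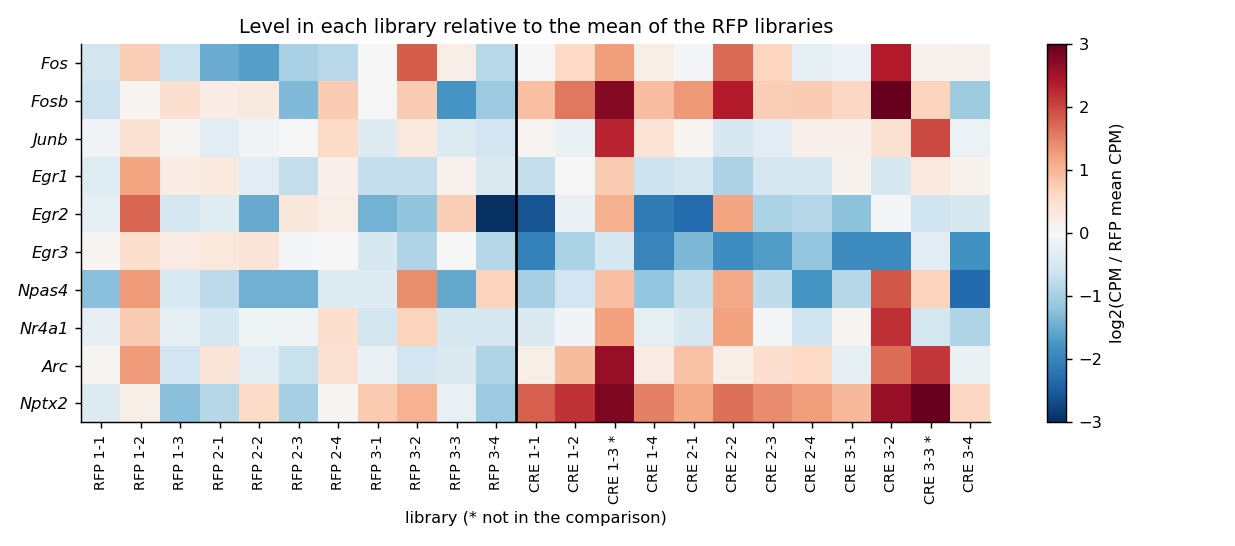
Log2 of each library's CPM over the mean of the 11 RFP libraries, for the 10 genes (rows) in the 23 libraries (columns, RFP left of the line, an asterisk marking the libraries not compared); red is higher and blue lower. *Egr3* is blue and *Nptx2* red across the CRE columns compared, and RFP 1-2, RFP 3-2, CRE 2-2 and CRE 3-2 show *Fos*, *Npas4* and *Nr4a1* in red together.

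The genes whose levels most resembled the mean standardized profile of the members over these 21 libraries were *Smg5* (r = 0.822), *Mrpl4* (0.809), *Gramd1b* (0.791), *Clcn6* (0.784), *Nupr1* (0.776), *Ppp1r11* (0.770), *LTO1* (0.764), *Rin1* (0.759), *Csrnp1* (0.757) and *Per1* (0.752). Of these, *Csrnp1* and *Per1* are among the activity-regulated genes counted below. Of these 10 genes, 8 were in the list without RFP 2-4 and 5 without CRE 3-2, so the order depends on single libraries.

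Further genes listed as activity-regulated rose more often than they fell. The cell types of the dishes in which they rose were not tested. Of 48 activity-regulated genes outside the 10, 47 were tested, and 22 rose and 5 fell in CRE, with a median log2 fold change of 0.51 against 0.02 over all genes. These were 46.8% and 10.6% of the genes tested in the list, against 20.2% and 17.8% of all genes tested. Without CRE 3-2, 20 rose and 5 fell, with a median of 0.37. Phosphatases that switch off ERK, a kinase on the path to these genes, were among the smallest p-values. *Dusp6* had 166 ± 12.1 CPM in CRE and 49.8 ± 12.0 CPM in RFP libraries (log2 fold change 1.74, adjusted p = 9.47e-13 by edgeR's quasi-likelihood test), and *Dusp4* had 135 ± 30.9 and 36.6 ± 13.7 CPM (1.89, 2.01e-09). *Trib1*, a pseudokinase, followed with 70.2 ± 17.1 and 27.8 ± 7.33 CPM (1.34, 2.13e-07). Falling genes were led by *Klf10*, a TGF-beta-inducible zinc finger gene (17.4 ± 3.89 and 35.8 ± 6.95 CPM, log2 fold change -1.04), *Jund*, a steadily expressed Jun gene (-0.67), and *Nr4a3* (140 ± 65.7 and 273 ± 49.5 CPM, -0.97). Of close relatives of the members, *Fosl2* rose by 0.77 and *Nr4a2* by 0.45 on the log2 scale, while *Egr4* (-0.30, adjusted p = 0.384) and *Jun* (0.02, 0.921) did not pass edgeR's test. *Bdnf*, a neurotrophin gene induced by activity (-0.39, 0.357), and *Homer1* (-0.40, 0.00233) had negative values, although the short activity-induced *Homer1* transcript cannot be told from the long one in gene counts.

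Genes that carry calcium signals to the members fell more often than they rose. Of 44 tested, 4 rose and 21 fell, with a median log2 fold change of -0.29. These were 9.09% and 47.7% of the list, against 20.2% and 17.8% of all genes tested. *Camk2a*, the abundant calcium/calmodulin kinase gene of glutamatergic neurons that is also among their markers below, had 388 ± 102 CPM in CRE and 1482 ± 409 CPM in RFP libraries (log2 fold change -1.93, adjusted p = 1.13e-08, edgeR's quasi-likelihood test). The NMDA receptor subunit gene *Grin2b* (-0.85, 3.18e-08) and the AMPA receptor subunit gene *Gria1* (-0.78, 1.10e-07) were also lower. Higher genes were *Elk3*, an SRF partner (0.88, 6.11e-05), *Hdac5*, a repressor of MEF2 (0.57, 0.000555), and *Crtc2*, a CREB coactivator (0.58, 0.00205). The factors that bind the promoters directly did not pass the test in the case of *Creb1* (-0.18, adjusted p = 0.260) and *Srf* (-0.20, 0.205), whereas *Mef2d* (-0.39, 7.86e-05) and *Mef2c* (-0.45, 0.0266) were lower by edgeR.

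**Figure D5:**
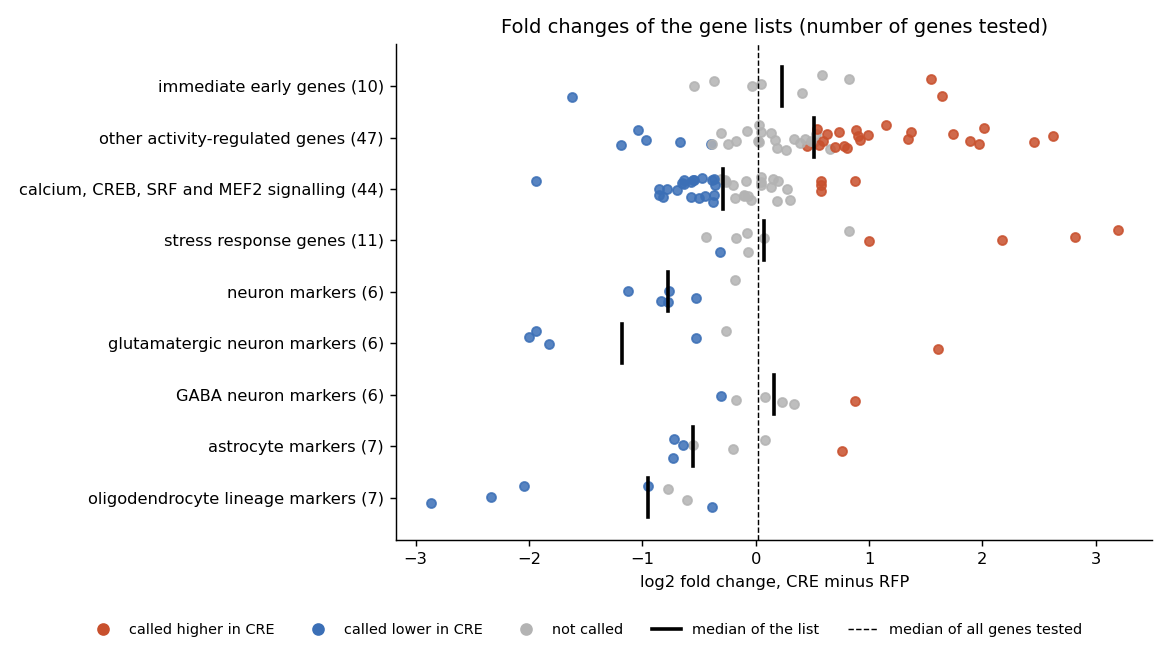
Log2 fold change, CRE minus RFP, of every tested gene of 9 lists, with the number tested in brackets; points are coloured by call, short bars are the medians of the lists and the dashed line the median of all genes tested. The other activity-regulated genes have a median of 0.51, the signalling genes one of -0.29, and the glutamatergic markers one of -1.18.

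Markers of cell types moved with the groups as well, to unlike extents. Of all genes tested, 37.9% were called, 20.2% higher and 17.8% lower. The share called was 83.3% for glutamatergic and for general neuronal markers and 71.4% for the oligodendrocyte lineage. It was 57.1% for astrocyte and 33.3% for GABA neuron markers, in lists of 6 or 7 genes. Of 6 markers of glutamatergic neurons, 4 fell and 1 rose, with summed levels of 703.7 to 1201 CPM in CRE and 1845 to 3866 CPM in RFP libraries, ranges that did not overlap. *Slc17a7*, which encodes the vesicular glutamate transporter vGlut1, was at 260.5 ± 62.7 CPM in CRE and 1040.0 ± 196 CPM in RFP libraries (log2 fold change -1.997, adjusted p = 9.47e-13, edgeR), and *Neurod6* fell by 1.82 on the log2 scale, while *Slc17a6*, the gene of vGlut2, rose by 1.61. Of 6 general neuronal markers 5 fell and 0 rose (led by *Syn1* at -0.77, *Rbfox3* at -1.13 and *Map2* at -0.53), and of 6 markers of GABA neurons 1 fell (*Gad2*, -0.30) and 1 rose (*Dlx5*, 0.88). Of 7 astrocyte markers 3 fell (*Slc1a2*, *Aldh1l1* and *Aldoc*) and 1 rose (*Gja1*), and of 7 of the oligodendrocyte lineage 5 fell, led by *Cspg4*, *Olig2* and *Sox10*. Of the microglial markers 2 of 6 could be tested, both at low levels, and they went opposite ways. *Tmem119* rose (1.93 ± 1.03 CPM in CRE, 0.175 ± 0.275 CPM in RFP). *Csf1r* had a negative value and was not called (0.624 ± 0.676 and 1.24 ± 0.470 CPM, log2 fold change -0.97, adjusted p = 0.207, edgeR). Of 8 endothelial and mesenchymal markers 5 could be tested and no call was made, with *Cldn5* at 3 counts or fewer in every library. The part of these markers in the values of *Egr3*, *Nptx2* and *Fosb* was not tested.

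Genes of the stress response, which can accompany induction of *Fos*-family genes, were also counted. Of 11, 4 rose, namely *Hmox1* (262 ± 76.2 CPM in CRE, 37.1 ± 10.3 CPM in RFP; log2 fold change 2.82), *Hspb1* (3.20), *Ddit3* (1.00) and *Atf3* (2.17), and *Ddit4* fell by 0.32. The genes called were 45.5% of the list against 37.9% of all genes tested, and the median log2 fold change was 0.077 against 0.02 over all genes. The heat shock genes *Hspa1a* (-0.44, adjusted p = 0.391), *Hspa1b* (-0.08, 0.881), *Dnajb1* (0.08, 0.564) and *Hsph1* (-0.07, 0.534) did not pass edgeR's test. *Hmox1*, *Ddit3* and *Atf3* are known to respond to oxidative and amino acid stress. Whether stress took part in the values of the 10 members was not tested.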

How the data were processed

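RNA of 23 libraries, 12 CRE and 11 RFP, was analysed. The authors made stranded mRNA libraries, sequenced these on an Illumina NovaSeq6000 and aligned the reads to GRCm39 with the Ensembl annotation. The submitters' processing notes name bcl2fastq 2.20.0.422, STAR 2.7.8a and featureCounts 1.5.0-p1. The authors deposited whole-number counts per gene and library without normalization. The strand setting and the treatment of multiply mapped reads are not given in the sources used here, so overlapping genes are uncertain. In 50-base stretches, the members shared none with another transcript except *Junb* (1.59%, with an antisense RNA).

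The study's methods remove CRE 1-3 and CRE 3-3, and the other 21 libraries were compared. Totals were 8923280 to 13345552 counts in CRE and 7635735 to 17112815 in RFP libraries. R 4.3.3 with edgeR 4.0.16 was used, with filterByExpr, TMM factors, a robust glmQLFit and glmQLFTest, without covariates, and Benjamini-Hochberg adjustment over the 14482 genes tested. The fits within a culture used the same steps. CPM used TMM factors over 23 libraries. Ratios were taken between counts with 1 added to each. Gene names, exons and sequences came from the GENCODE annotation and genome of GRCm39, and 56323 of 56941 genes had a name. The promoter window of 1 member is not reported here. Python 3.11.15, numpy 2.4.6, pandas 2.3.3, scipy 1.17.1 and matplotlib 3.10.9 gave other values. No pair of libraries had identical counts.

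The members and all lists were chosen with earlier results of these data known. Named are all members, up to 3 higher and 3 lower genes of each list by smallest p, the 10 genes most like the members, and *Nedd8*. *Nptx1*, *Fosl2*, *Nr4a2*, *Egr4*, *Jun*, *Bdnf*, *Homer1*, *Creb1*, *Srf*, *Mef2c*, *Mef2d*, *Atf3*, *Csf1r*, the heat shock genes and *Rn18s-rs5* fall outside this rule and were chosen after their values were seen. On simulated data with known changes, tested over 14299 genes, edgeR called 73 of 96 genes changed 2-fold, 92 of 97 changed 4-fold and 9 unchanged genes. The simulated libraries were independent, without effects of culture or GC content, and only 200 genes were changed. These counts therefore cannot show the error rate where libraries of a culture are not independent.

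Alternatives covered the libraries, the scaling, the filter on low counts, DESeq2 1.42.0, limma-voom (limma 3.58.1), the culture as a block, a correction for GC content, sums per culture and each culture left out. Chosen after seeing the data were the GC correction over all 23 libraries, each library left out, and 0.5 as the count added in ratios.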

Additional observations from a re-analysis of the deposited data

Results flagged for a closer look

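Among the CRE libraries, values that stood apart from the group, by Dixon's test at the 95% level, were found for 3 members. *Arc* and *Nr4a1* were far above the other CRE libraries in CRE 3-2, at 77.6 and 98.8 CPM, and *Egr2* in CRE 2-2, at 9.27 CPM. The test calls about 1 in 20 groups by chance, and it was applied only to the 10 CRE libraries of each gene. The RFP libraries were not tested, although they held high single values as well. Examples are *Egr1* in RFP 1-2 at 161.6 CPM, *Fos* in RFP 3-2 at 65.2 CPM and *Arc* in RFP 1-2 at 58.6 CPM.

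The CRE libraries that the study's methods remove were left out of the main comparison and entered only some of the alternatives below. In them several members lay above the range of the 11 RFP libraries. In CRE 1-3 these were *Fosb* at 20.3 CPM, *Junb* at 159 CPM, *Arc* at 149 CPM, *Nr4a1* at 50.7 CPM and *Nptx2* at 97.0 CPM. In CRE 3-3, the library with the fewest counts, 1546796, they were *Junb* at 130 CPM, *Arc* at 106 CPM and *Nptx2* at 113 CPM. Both libraries had the steep rise of counts with GC content given above, and its part in these values was not tested.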

How the results depend on the processing

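Over 37 alternatives, 21 of which left out 1 library each, *Egr3* stayed between -1.80 and -1.36, *Nptx2* between 1.41 and 1.93 and *Fosb* between 1.15 and 1.78 on the log2 scale, and each was called in all 37. *Fos* (0.46 to 1.26) was called in 5, *Arc* (0.27 to 1.08) in 7, *Egr1* (-0.75 to -0.11) and *Junb* (-0.18 to 0.65) in 1 each, and *Egr2*, *Npas4* and *Nr4a1* in 0. The members called were 5 with the libraries of the study's supplementary count table, with all 23 libraries after GC correction, and without culture 3, and 3 or 4 otherwise; the cause was not tested. Of the 11 stress genes, 2 were called without culture 1 and 2 without culture 2, where fewer libraries were compared. Of all genes, 3727 to 8044 were called.

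Of the 7 members not called, 4 changed sign under some alternatives, and *Fos*, *Arc* and *Egr1* did not under the 37 run. *Junb* was -0.18 without culture 3 and -0.058 to 0.12 with single libraries left out. It was 0.65 with all 23 libraries, 0.47 with those of the supplementary table and 0.30 with the GC correction (adjusted p = 0.0532, edgeR). *Egr2* was 0.064 without culture 1. *Nr4a1* was -0.079 without culture 3 and -0.037 to 0.52 with single libraries left out. *Npas4* was 0.13 with all 23 libraries, 0.31 with those of the supplementary table, 0.19 without RFP 2-4 and RFP 3-2, 0.34 without culture 1 and -0.56 to 0.20 with single libraries left out. The cause was not tested. The members with the fewest counts were *Egr2* (5 to 182 per library) and *Fosb* (11 to 270).

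CRE and RFP means of the same culture number correlated at 0.125, 0.199 and 0.081 in their deviations from the group means, against -0.146 to 0 for unlike numbers. The limma-voom fit gave a correlation of 0.024 for libraries of a culture. The numbers were not taken as pairs in the main comparison. With the replicate block for culture, 3 members and 5657 genes were called, and *Npas4* was 0.042, or 0.079 with the GC correction as well. The block changed no member's call by itself, and with the GC correction *Arc* was called (0.73, adjusted p = 0.0199, edgeR), as it was with that correction alone.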
